A study of Homo sapiens with 8 samples.

Results

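PURPL, TP53TG1, MIR34AHG and MIR22HG are long noncoding RNA (lncRNA) genes that the tumour suppressor p53 is known to induce, and they were followed in HepG2 and LM3 cells with and without JQ1. They were chosen by name, with earlier results of these data known, as the rows whose Ensembl IDs map to these 4 symbols. All 4 were found among the 23161 loci of each table and among the 15469 loci with values. HepG2 and LM3 are human hepatocellular carcinoma cell lines, per the labels. The BET inhibitor JQ1 keeps bromodomain proteins off acetylated histones, and the series asks how lncRNAs respond to it. The 8 libraries of ribosomal-RNA-depleted total RNA form 4 groups of 2, which are HepG2 with DMSO vehicle, HepG2 with JQ1, LM3 with DMSO vehicle and LM3 with JQ1. The labels name no genetic change, dose or duration, and they do not say whether replicates were separate cultures, so p-values measure the spread between these libraries alone, and that spread may be technical.

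The transcription factor p53 is stabilised by DNA damage and other stresses and switches on genes that halt the cell cycle or lead to cell death, and HepG2 is known to carry wild-type p53. Among its noncoding targets are RNAs that feed back on p53 itself and transcripts whose processing releases a microRNA. PURPL is known to keep p53 levels low, TP53TG1 was first described as a p53 target and lies beside CROT, and MIR34AHG and MIR22HG are the primary transcripts of miR-34a and miR-22. miR-34a represses mRNAs of cell cycle and survival factors. The mature microRNAs were not measured in these libraries, only the host transcripts.

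The seeds through which these microRNAs recognise their targets show what each host gives rise to. The sequences are from RefSeq (GRCh38.p14), 5′ to 3′, with the seed (bases 2 to 8) in capitals. All 4 mature arms of the 2 host genes matched by name, and the main arms are shown with 1 other sequence that shares a seed.
hsa-miR-34a-5p: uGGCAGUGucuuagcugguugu
hsa-miR-449a: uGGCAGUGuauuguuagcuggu
hsa-miR-22-3p: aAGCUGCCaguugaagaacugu
Among the mature sequences searched, hsa-miR-34a-5p shared its seed with hsa-miR-449a and hsa-miR-449b-5p, and the seed of hsa-miR-22-3p was found in no other entry. The set searched may not hold every human microRNA, so further microRNAs may share these seeds. The miR-22 hairpin (chromosome 17, 1713903 to 1713987, minus strand of GRCh38) lay in an exon of all 19 GENCODE transcripts of MIR22HG. The miR-34a hairpin (chromosome 1, 9151668 to 9151777, minus strand) lay 47129 bases downstream of the MIR34AHG start, within an exon of the only 1 of 4 transcripts that reached it.

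The promoters of all 4 members were read next, and those of the 2 members called higher in HepG2 are printed. Each runs from 250 bases before to 50 bases after the RefSeq start, in the direction of transcription, and capitals mark matches to the p53 half-site, the short element that a p53 dimer binds.
PURPL, chr5:27472042-27472341, plus strand: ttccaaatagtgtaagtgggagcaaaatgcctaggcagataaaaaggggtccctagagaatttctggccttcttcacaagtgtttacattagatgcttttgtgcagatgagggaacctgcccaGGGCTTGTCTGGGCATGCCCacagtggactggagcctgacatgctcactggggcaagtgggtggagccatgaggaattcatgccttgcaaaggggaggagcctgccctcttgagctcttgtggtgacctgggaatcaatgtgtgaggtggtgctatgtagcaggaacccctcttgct
MIR22HG, chr17:1716161-1716460, minus strand: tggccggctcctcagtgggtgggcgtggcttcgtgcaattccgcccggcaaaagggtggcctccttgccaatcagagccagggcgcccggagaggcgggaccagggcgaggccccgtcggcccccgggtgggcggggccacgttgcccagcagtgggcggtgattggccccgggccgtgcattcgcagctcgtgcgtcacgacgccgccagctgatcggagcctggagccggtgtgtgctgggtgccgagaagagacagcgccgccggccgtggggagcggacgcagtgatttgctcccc
The PURPL promoter held 2 half-sites that adjoin without a gap, GGGCTTGTCT and GGGCATGCCC, from position -127 to -108 relative to the start (chromosome 5, 27472165 to 27472184). At least 1 half-site was present in 2329 of 35116 promoters of the same length (6.63%, both strands searched), and 2 adjoining half-sites in 6 of them (0.017%). The MIR22HG, TP53TG1 and MIR34AHG promoters held no match in this window. The RefSeq starts of PURPL, MIR22HG and MIR34AHG lie 254578, 964 and 16568 bases inside their deposited loci, so these windows do not reach the deposited starts. Sites outside the windows were not searched. The E-box CACGTG was in none of the 4 and in 7.26% of all promoters. Bases G and C made up 52.0% of the PURPL promoter against 70.7%, 75% and 72.3% for TP53TG1, MIR34AHG and MIR22HG, where the median over all promoters was 58.7%. A match is a run of letters and does not show binding in these cells. The 4 genes were chosen as known p53-induced genes, so a p53 match could be foreseen. The part of such a match in the response to JQ1 was not tested.

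The libraries were alike in scale. FPKM, a fragment count scaled to transcript length and to the size of the library, summed to between 29369 and 35742 per library, and 11230 to 12332 loci were above 0. Across tested loci Pearson's r between the replicates of a group was 0.961 to 0.979, a comparison across genes, which are not independent replicates. Ribosomal RNA and mitochondrial loci took 15.3% to 19.6% of the FPKM with vehicle and 17.1% to 22.8% with JQ1, and every call of a member given here held after rescaling without them. Of 11 hepatocyte-lineage lncRNAs 8 had values. H19 stood at 2038 to 2249 FPKM in HepG2 and 310 to 348 FPKM in LM3, and HULC at 0.50 to 0.80 FPKM over all libraries, while HNF4A-AS1 and LINC01554 stayed at or under 0.31 FPKM. CPS1-IT1 fell with JQ1 in both lines, from 6.84 and 6.79 to 1.33 and 1.22 FPKM in HepG2 and from 1.34 and 1.41 to 0.41 and 0.26 FPKM in LM3 (log2 fold changes -2.04 and -1.17, limma adjusted p = 0.00262 and 0.0119). LINC01485 fell in HepG2 (-0.75, limma adjusted p = 0.0242), and LINC00261, too low to be tested, was at 0.48 and 0.64 FPKM with vehicle and 0.05 and 0.08 FPKM with JQ1 there. The part of these markers in the members' results was not tested. Of 7 lncRNAs of other cell types 5 had values. The blood cell marker MIR142HG was at no more than 0.03 FPKM. The B cell marker LINC00926 was at 0.76 to 0.94 FPKM in HepG2 and 0.74 to 1.14 FPKM in LM3, and was called in neither line. The summed level of these 5 fell from 9.34 and 10.3 to 3.71 and 3.77 FPKM in HepG2. In LM3 that sum fell from 4.33 and 4.82 to 2.34 and 2.36 FPKM. Both falls came mostly through FENDRR, and its part in the members' results was not tested.

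PURPL was abundant in HepG2, rose with JQ1 there, and was low in LM3. Its deposited locus (ENSG00000250337) runs from 27217714 to 27496994 on the plus strand of chromosome 5 in GRCh38. It thus begins 254578 bases upstream of the GENCODE and RefSeq start of the gene. The span wholly contains another lncRNA, AC113355.1, on the minus strand (27412613 to 27436411). The strand setting of the counting is not given, so reads of AC113355.1 may be included. In HepG2 PURPL stood at 15.27 and 15.17 FPKM in vehicle replicates 1 and 2 and at 19.54 and 20.09 FPKM in the JQ1 replicates. Both JQ1 libraries were above both vehicle libraries. The log2 fold change was 0.37 (SE 0.066, limma adjusted p = 0.0232), a ratio of the means of 1.3. In LM3 the values were 0.64 and 1.31 FPKM with vehicle and 1.10 and 1.04 FPKM with JQ1. Both JQ1 values lay between the vehicle values, which differed from each other by more than the groups did (log2 fold change 0.13, 95% interval -0.53 to 0.79, limma adjusted p = 0.728).

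The mean vehicle level of PURPL was 15.2 ± 0.0707 FPKM in HepG2 (SD, n = 2) and 0.975 ± 0.474 FPKM in LM3 (n = 2), a ratio of 15.6 between tables that may have been normalized separately. The rank within a table does not depend on that scale. With vehicle PURPL ranked 210th of 15469 loci in HepG2, above 98.6% of them, and 4162nd in LM3, above 73.0%. An authors' locus with exactly the same span, LXLOC_043338, stood at 1.24 and 1.31 FPKM with vehicle and 1.92 and 1.88 FPKM with JQ1 in HepG2 (log2 fold change 0.44, limma adjusted p = 0.0292). In LM3 it was at or under 0.09 FPKM in all 4 libraries. Reads of these loci may have been split or shared, so they are not independent measurements.

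TP53TG1 rose with JQ1 in LM3 and showed no change beyond the replicate spread in HepG2. The deposited locus (ENSG00000182165) covers chromosome 7, 87322943 to 87345528, on the minus strand, and the coding gene CROT starts at 87345681 on the other strand without overlapping it. In LM3 the values were 1.26 and 1.17 FPKM with vehicle and 2.0 and 1.89 FPKM with JQ1. The groups were well apart relative to their replicates, and the log2 fold change was 0.51 (SE 0.092, limma adjusted p = 0.0266), a ratio of 1.60. In HepG2 they were 2.02 and 2.43 FPKM with vehicle and 2.14 and 2.24 FPKM with JQ1. The JQ1 pair lay inside the vehicle pair (log2 fold change -0.015, 95% interval -0.30 to 0.27, limma adjusted p = 0.93, and 0.024 or 0.015 when libraries were centred on their median or quantile normalized). With vehicle TP53TG1 ranked 1582nd in HepG2 and 3385th in LM3, and its mean levels with JQ1 were 2.19 ± 0.0707 and 1.95 ± 0.0778 FPKM (SD, n = 2 each).

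**Figure D1:**
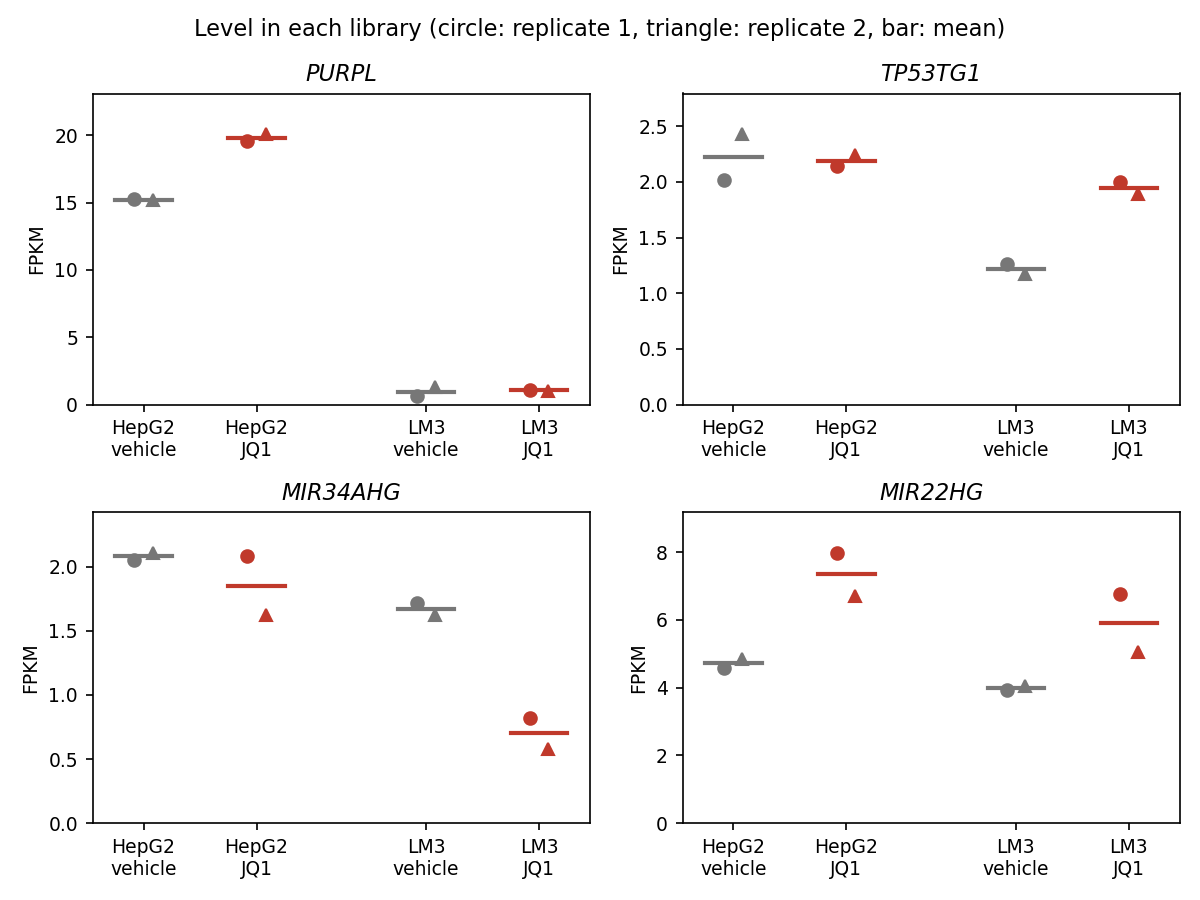
FPKM (vertical axes, from 0) of the 4 genes in each of the 8 libraries, with vehicle in grey, JQ1 in red, replicate 1 as a circle, replicate 2 as a triangle and the group mean as a bar. PURPL is at 15.17 to 20.09 FPKM in HepG2 and at no more than 1.31 FPKM in LM3, and the JQ1 libraries of MIR34AHG in LM3 (0.58 and 0.82 FPKM) lie under the vehicle libraries (1.62 and 1.72 FPKM).

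MIR34AHG fell with JQ1 in LM3 to less than the lowest vehicle value, and its HepG2 groups overlapped. The locus (ENSG00000228526) covers chromosome 1, 9148011 to 9198906, on the minus strand, with a RefSeq start 16568 bases inside it. In LM3 the host transcript of miR-34a stood at 1.72 and 1.62 FPKM with vehicle and at 0.82 and 0.58 FPKM with JQ1. The JQ1 mean was 0.419 of the vehicle mean (log2 fold change -0.86, SE 0.13, limma adjusted p = 0.02). In HepG2 the values were 2.05 and 2.11 FPKM with vehicle and 2.08 and 1.62 FPKM with JQ1. JQ1 replicate 1 was level with the vehicle libraries and JQ1 replicate 2 was lower (log2 fold change -0.14, 95% interval -0.47 to 0.19, limma adjusted p = 0.447). Without JQ1 replicate 2 the HepG2 difference was 9.8e-05.

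The authors' locus LXLOC_002941 (chromosome 1, 9160049 to 9183750, minus strand) lies wholly inside MIR34AHG and spans its RefSeq start. In LM3 it stood at 1.56 and 1.73 FPKM with vehicle and 0.87 and 0.82 FPKM with JQ1 (log2 fold change -0.67, limma adjusted p = 0.0178). In HepG2 its values were 2.20 and 2.26 FPKM with vehicle and 2.02 and 2.01 FPKM with JQ1 (-0.12, limma adjusted p = 0.336). It thus had the same order of groups as its host gene in LM3, from reads that may be shared. LNCTAM34A, an antisense lncRNA known to act on the miR-34a promoter, overlaps MIR34AHG on the plus strand (9182004 to 9196284). It was too low to be tested, at 0.65 and 0.48 FPKM with vehicle and 0.25 and 0.38 FPKM with JQ1 in HepG2, and at 0.14 to 0.27 FPKM in LM3. The strand setting of the counting is not given in the sources used here, so reads of the antisense pair cannot be told apart.

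The next locus downstream on the same strand, LXLOC_002940 (9100305 to 9139457), begins 8553 bases past the end of MIR34AHG, and 73.7% of it overlaps the receptor gene GPR157 on the same strand. In LM3 it was at 0.40 and 0.80 FPKM with vehicle and 2.22 and 1.64 FPKM with JQ1 (log2 fold change 1.16, limma adjusted p = 0.0345, and 0.0504 with replicates as blocks). It rose in the line in which MIR34AHG fell. Leaving out any 1 library of the line ended the calls of LXLOC_043338 in HepG2 and of LXLOC_002941 and LXLOC_002940 in LM3. Such fits lost most or all calls over the whole line, so this is not particular to these loci. Testing loci of all levels ended both calls in LM3. In HepG2 LXLOC_002940 was at 2.21 and 1.18 FPKM with vehicle and 1.99 and 1.83 FPKM with JQ1, with overlapping groups (0.17, limma adjusted p = 0.639).

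**Figure D2:**
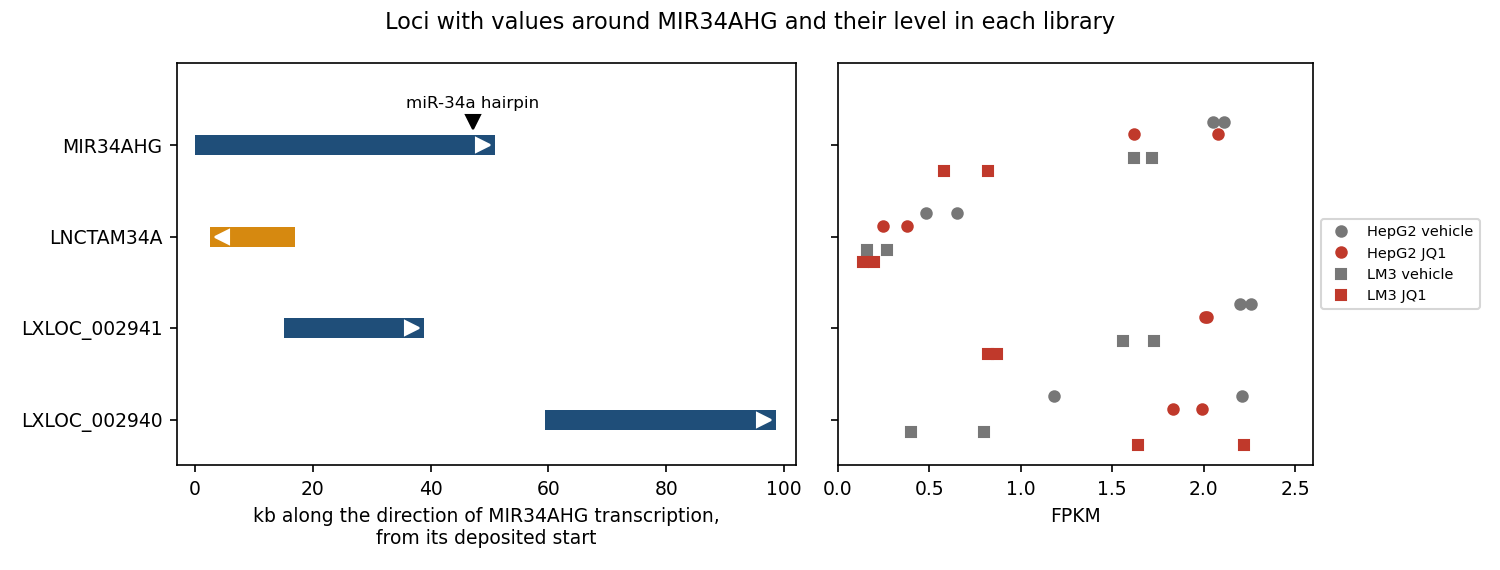
Left, the 4 loci with values around MIR34AHG, in kb along its direction of transcription from its deposited start, with minus-strand loci in blue and the plus-strand locus in orange, and the miR-34a hairpin as a triangle. Right, their FPKM in each library (circles for HepG2, squares for LM3, vehicle grey, JQ1 red): in LM3 the JQ1 squares of MIR34AHG and LXLOC_002941 lie left of the vehicle squares, and those of LXLOC_002940 lie right of them (1.64 and 2.22 against 0.40 and 0.80 FPKM).

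MIR22HG was higher with JQ1 in both JQ1 libraries of each line, and the rise was called in HepG2. The locus (ENSG00000186594) covers chromosome 17, 1711493 to 1717174, on the minus strand, and its first 652 bases overlap the coding gene WDR81 on the other strand. With the strand setting of the counting not given, reads of the 2 genes there cannot be told apart. In HepG2 the host transcript of miR-22 stood at 4.57 and 4.86 FPKM with vehicle and 7.99 and 6.71 FPKM with JQ1 (log2 fold change 0.59, SE 0.11, limma adjusted p = 0.0257), a ratio of 1.56. In LM3 it stood at 3.93 and 4.06 FPKM with vehicle and 6.76 and 5.04 FPKM with JQ1. The groups did not overlap in LM3 either, but the JQ1 libraries lay far apart and the difference was not called (log2 fold change 0.50, 95% interval 0.08 to 0.91, unadjusted p = 0.0288, limma adjusted p = 0.0888). In LM3 27.0% of all tested loci had both JQ1 libraries above both vehicle libraries.

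An authors' locus with the span of MIR22HG, LXLOC_023855, was at or under 0.16 FPKM in every library, so hardly any signal was assigned to it. LXLOC_023857, 55133 bases away and mostly antisense to SERPINF1, was at 1.99 and 1.95 FPKM with vehicle and 1.45 and 1.74 FPKM with JQ1 in HepG2 (log2 fold change -0.24, limma adjusted p = 0.166). In LM3 it was at 1.87 to 2.07 FPKM in all libraries.

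FPKM is scaled to transcript length, so levels of the 2 microRNA hosts can be set against each other within a library, where any scaling of the library cancels. The length used per locus is not given, and GENCODE transcripts of MIR34AHG run from 409 to 4457 bases. Its reads may also be shared with LXLOC_002941. The size of these ratios, and the order of levels between genes, are therefore uncertain. MIR22HG was 2.23 and 2.30 times as high as MIR34AHG in the HepG2 vehicle libraries and 3.84 and 4.14 times in the JQ1 libraries. In LM3 the ratio of levels was 2.29 and 2.51 with vehicle and 8.24 and 8.69 with JQ1. With vehicle the lines thus lay close together, and with JQ1 the ratio was higher in every library of both lines. By the same measure TP53TG1 was at 0.733 and 0.722 of the MIR34AHG level in LM3 with vehicle and at 2.44 and 3.26 times that level with JQ1. In HepG2 that ratio ran from 0.985 to 1.38 over the 4 libraries.

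In order of level, the HepG2 vehicle libraries had PURPL first, then MIR22HG (4.71 ± 0.205 FPKM), then TP53TG1 (2.23 ± 0.29 FPKM) and MIR34AHG (2.08 ± 0.0424 FPKM, SD, n = 2 each), of which the last pair overlapped. In LM3 with vehicle the order was MIR22HG (4.0 ± 0.0919 FPKM), MIR34AHG (1.67 ± 0.0707 FPKM), TP53TG1 (1.22 ± 0.0636 FPKM) and PURPL (0.975 ± 0.474 FPKM), with the values of TP53TG1 inside those of PURPL. With JQ1 in LM3, MIR34AHG was the lowest of the 4, at 0.70 ± 0.17 FPKM against 1.07 ± 0.0424 FPKM for PURPL.

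**Figure D3:**
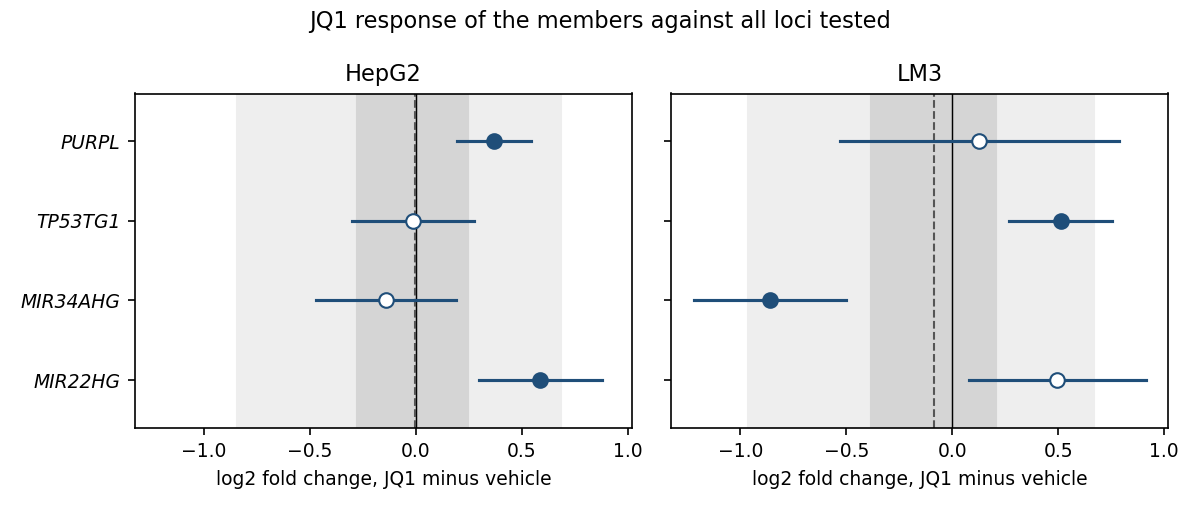
Log2 fold change with JQ1 (horizontal axis, on log2(FPKM + 0.5)) of each gene in HepG2 (left) and LM3 (right), with its 95% interval and a filled point where limma called it. The dark and pale bands hold the middle 50% and 90% of all loci tested and the dashed line is their median, and MIR34AHG in LM3 (-0.86) is the lowest of the 8 points.

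All 4 genes passed the filter on low values in both lines (0.5 FPKM or more on average over a line's libraries). In HepG2 2 of 4 were called, PURPL and MIR22HG, both higher, where limma called 25.1% of the 5906 loci tested, 10.8% higher and 14.2% lower. In LM3 2 of 4 were called, TP53TG1 higher and MIR34AHG lower, against 23.3% of 6474 loci, 7.92% higher and 15.4% lower. That split depended on the scaling: 513 loci higher and 998 lower in LM3 became 700 and 770 with libraries centred on their median, and 715 and 732 after quantile normalization, with the calls of the 4 genes unchanged. These shares rest on 4 genes and are not read as a result about them. Vehicle and JQ1 values did not overlap for 2 of 4 in HepG2, where this held for 66.4% of the loci tested (32.4% higher and 33.9% lower with JQ1). In LM3 they did not overlap for 3 of 4, against 66.7% (27.0% higher and 39.7% lower). The log2 fold change of MIR34AHG in LM3 was above that of 6.97% of the loci tested, and that of TP53TG1 in LM3 above 91.0%. In HepG2 the figure was 92.4% for MIR22HG and 83.4% for PURPL. No gene was called in both lines. Leaving out any 1 library of a line ended each of the 4 calls. Such fits lost most or all calls over the whole line, so this is not particular to these genes. Testing loci of all levels ended the calls of MIR22HG, TP53TG1 and MIR34AHG but not that of PURPL.

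Whether the lines differed in their response was tested directly, in 1 limma fit over the 8 libraries, and none of the 4 genes passed. The response of MIR34AHG was lower in LM3 than in HepG2 by a log2 difference of -0.72 (95% interval -1.18 to -0.26, unadjusted p = 0.00784, limma adjusted p = 0.234). TP53TG1 had a difference of 0.53 in the other direction (95% interval 0.20 to 0.85, unadjusted p = 0.00713, limma adjusted p = 0.234). For PURPL the difference was -0.24 (-0.92 to 0.43, limma adjusted p = 0.768), and for MIR22HG -0.089 (-0.58 to 0.40, limma adjusted p = 0.884). Over all loci this test called 11 of 5035, 0.218%, and 604 had an unadjusted p under 0.05. A call in 1 line and none in the other does not show that the lines differ.

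Other lncRNAs of the p53 pathway were taken from a list of 11, of which 10 had values and 4 were high enough to be tested. In each line 1 rose, 1 fell and 2 were not called, where 25.1% of all loci tested were called in HepG2 and 23.3% in LM3. NEAT1, the scaffold of paraspeckles, rose from 95.2 and 88.8 to 170 and 194 FPKM in HepG2 (log2 fold change 0.98, limma adjusted p = 0.00864) and from 115 and 119 to 186 and 180 FPKM in LM3 (0.64, adjusted p = 0.0122). PVT1, the neighbour of MYC, fell from 89.7 and 92.5 to 55.1 and 58.0 FPKM in HepG2 (-0.68, limma adjusted p = 0.00873) and from 81.8 and 84.1 to 50.5 and 50.8 FPKM in LM3 (-0.71, adjusted p = 0.011). LINC-PINT, reported to link p53 to chromatin repression, was at 7.96 and 7.21 FPKM with vehicle and 5.15 and 6.87 FPKM with JQ1 in HepG2 (-0.32, limma adjusted p = 0.193). In LM3 it was at 9.87 and 10.1 FPKM against 5.94 and 8.01 FPKM (-0.50, limma adjusted p = 0.0899). NORAD, a cytoplasmic RNA that binds Pumilio proteins, differed little, at -0.13 in HepG2 (limma adjusted p = 0.334) and -0.14 in LM3 (adjusted p = 0.281). The other 6, MEG3, PANDAR, DINOL, LINC-ROR, PINCR and MIR194-2HG, stayed at or under 0.38 FPKM in every library. Leaving out either JQ1 library in HepG2 or any 1 library in LM3 ended the calls of NEAT1 and PVT1. It ended the calls of all other loci too, so this is not particular to these genes. Testing loci of all levels ended the call of NEAT1 in HepG2 (limma adjusted p = 0.0615). PANDAR and DINOL, which lie beside the p53 target CDKN1A, reached no more than 0.02 and 0.05 FPKM.

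Among microRNA hosts other than MIR34AHG and MIR22HG, 65 had values. In HepG2 26 were tested, of which 7 fell, 1 rose and 18 were not called (14.2% of all loci tested fell and 10.8% rose), with a median log2 fold change of -0.15 against -0.0056 over all loci tested. In LM3 27 were tested, of which 4 fell, 1 rose and 22 were not called, with a median of -0.21 against -0.084. Over all loci tested in LM3 15.4% fell and 7.92% rose, so the counts of hosts called there were not above the background. Both medians stayed negative under every scaling tried. MIR99AHG and MIR100HG, which carry microRNAs of the miR-99/let-7/miR-125 clusters, had the largest falls in LM3. MIR99AHG went from 16.5 and 14.7 to 7.08 and 6.85 FPKM in HepG2 and from 6.25 and 6.77 to 1.57 and 2.47 FPKM in LM3 (log2 fold changes -1.11 and -1.50, limma adjusted p = 0.00697 and 0.015). MIR100HG changed by -0.88 and -1.25 on the same scale (limma adjusted p = 0.00836 and 0.00734).

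MIR17HG, the host of the miR-17-92 cluster, fell in HepG2 (-0.92, limma adjusted p = 0.00704) and was not called in LM3 (-0.55, adjusted p = 0.0703). MIR1915HG changed by -0.88 in HepG2 (limma adjusted p = 0.00797) and by -0.44 in LM3 (adjusted p = 0.0338, lost after quantile normalization, with replicates as blocks and without the filter on low values). MIR4435-2HG changed by -0.50 in HepG2 and by -0.60 in LM3 (limma adjusted p = 0.0142 and 0.0165). Its near-identical copy CYTOR makes the level of MIR4435-2HG uncertain. The host that rose in each line was MIRLET7BHG, named here after its values were seen, from 10.2 and 11.1 to 16.6 and 18.6 FPKM in HepG2 and from 11.1 and 11.4 to 17.3 and 14.9 FPKM in LM3 (0.70 and 0.49, limma adjusted p = 0.0127 and 0.038, the latter 0.0542 with replicates as blocks). Leaving out either JQ1 library in HepG2 or any 1 library in LM3 ended every call of a host named here. It ended the calls of all other loci too, so this is not particular to these hosts. Testing loci of all levels ended the calls of MIR100HG in HepG2, of MIR99AHG, MIR1915HG and MIR4435-2HG in LM3 and of MIRLET7BHG in both lines (limma adjusted p from 0.0524 to 0.1421). In HepG2 MIR22HG and MIRLET7BHG were the 2 microRNA hosts called higher.

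**Figure D4:**
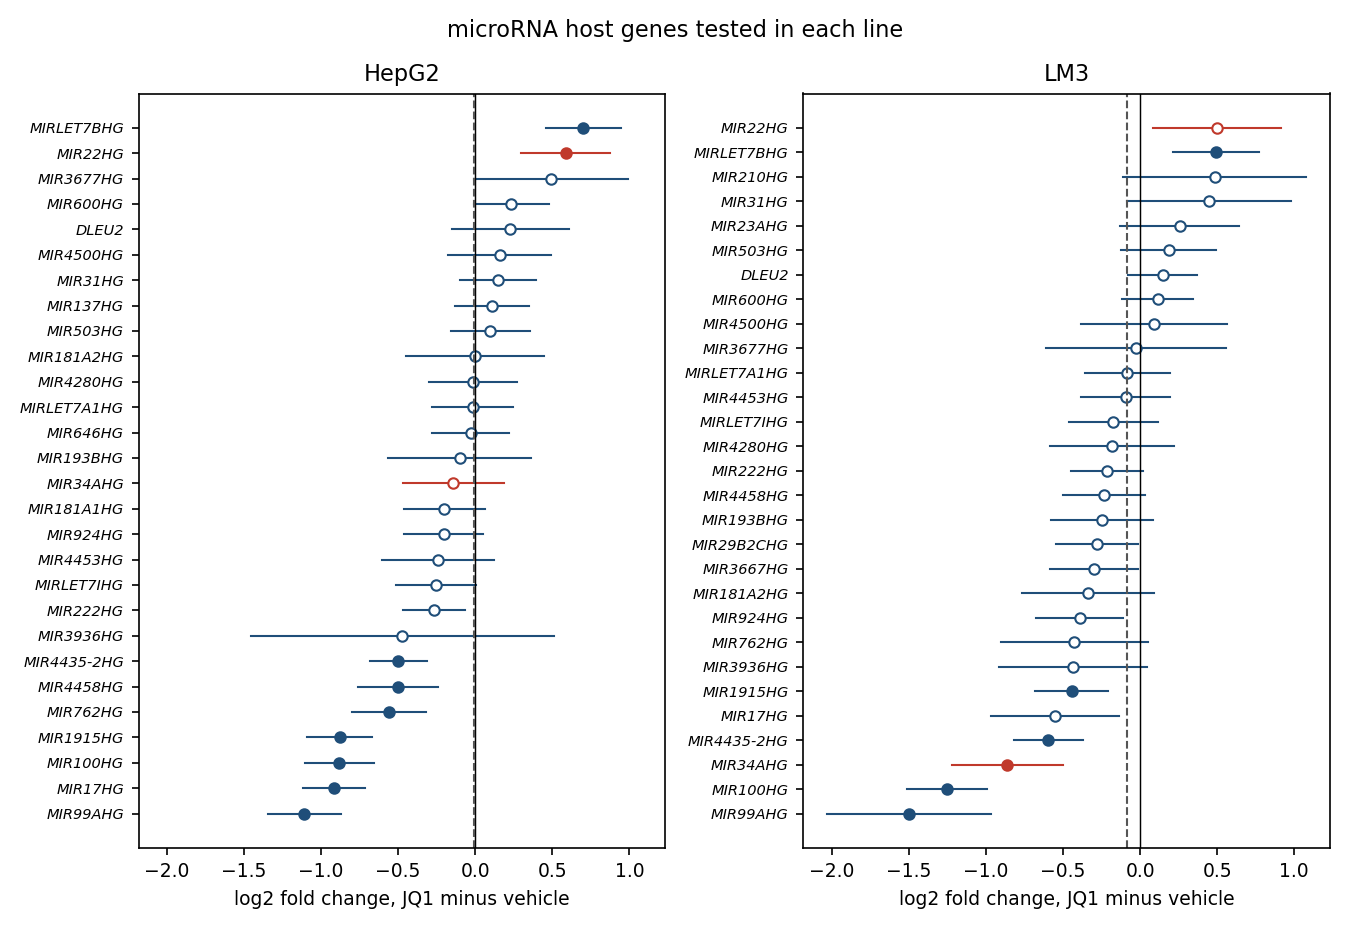
Log2 fold change with JQ1 and 95% interval of each microRNA host gene tested in HepG2 (left) and LM3 (right), ordered by value, filled where limma called it and in red for MIR22HG and MIR34AHG. The dashed line is the median of all loci tested, and MIR34AHG lies near it in HepG2 (-0.14) and the third from the bottom in LM3 (-0.86).

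The genes with the pattern most like each of the 4 were sought among 819 other loci with a symbol that were tested in both lines. Likeness was Pearson's r over the 8 libraries of log2(FPKM + 0.5) less the line's vehicle mean, a description over libraries that share line, treatment and scale. For MIR22HG they were NOP14-AS1 (r = 0.956), LINC02245 (0.943) and LINC02693 (0.943), each with a positive log2 fold change in both lines. TP53TG1 was most like SNHG7 (r = 0.991), a snoRNA host at 0.021 in HepG2 and 0.51 in LM3 on the log2 fold change scale, then TTC28-AS1 (0.964) and SNHG5 (0.951). MIR34AHG was nearest to ZSCAN16-AS1 (r = 0.960), PAX8-AS1 (0.960) and GABPB1-IT1 (0.948), of which PAX8-AS1 had log2 fold changes of -0.64 and -2.05. For PURPL the values were lower, with MADCAM1-AS1 (r = 0.918), RUSC1-AS1 (0.902) and LINC02821 (0.893).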

How the data were processed

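The authors deposited 1 table of FPKM values per cell line, per the file headers, rounded to 2 decimals, with a dash for 7692 of 23161 loci, which were left out. The submitters' processing notes list Bowtie 0.12.2, hg19 and mm8 without a role. The tables' coordinates match GRCh38, since 99.9% of 14872 Ensembl IDs shared by name with GENCODE release 29 had its chromosome and 85.7% its start. The counting tool, its strand setting and the read totals were not given in the sources used here. Of low values 31.3% to 45.5% per library fell within 0.1 of a whole fragment step. The step was chosen per library for the best fit, so a share above the 20% of an even spread could be foreseen. The share was far from all, so counts were not recovered, and counting error per locus cannot be given.

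JQ1 was compared with vehicle within each line by limma 3.58.1 (R 4.3.3, trend and robust) on log2(FPKM + 0.5), two-sided, over all loci averaging 0.5 FPKM or more in the line, with Benjamini-Hochberg adjustment and a threshold of 0.05. Fold changes refer to that scale and understate the change of loci near 0. With 2 libraries against 2 an exact permutation test of 1 gene cannot go below p = 0.333. The steps were run on simulated data with changes larger than those of any member, so that run does not bear on calls of their size. Sequences are from RefSeq, where all 4 promoters matched. Tables used pandas 2.3.3 and NumPy 2.4.6 under Python 3.11.15, and figures matplotlib 3.10.9.

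Members and lists were chosen with earlier results of these data known. Named genes were the members, p53-list lncRNAs above the same filter, up to 4 called microRNA hosts with the smallest p per line, loci within 100 kb of a member and the 3 loci most like each. Alternatives were other pseudocounts, filters, scalings and variance models, replicate blocks, removal of overlapping loci, and leaving out each library.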

Additional observations from a re-analysis of the deposited data

How the results depend on the processing

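Fold changes are log2 values, with JQ1 minus vehicle or LM3 minus HepG2. Apart from leaving out libraries, PURPL in HepG2 kept its call under all 10 alternatives (0.31 to 0.41, adjusted p to 0.0467). Without the filter on low values MIR22HG in HepG2 (0.59), TP53TG1 in LM3 (0.51) and MIR34AHG in LM3 (-0.86) missed the threshold, with adjusted p = 0.133, 0.0571 and 0.109; the cause was not tested. The same setting left 327 loci higher and 492 lower in HepG2, and 253 and 572 in LM3, and a filter at 1 FPKM left 548 lower in HepG2. Calls of 640 higher and 840 lower loci in HepG2 became 809 and 786 after median centring, and 513 and 998 in LM3 became 700 and 770. Values near 0 changed sign: TP53TG1 in HepG2 to 0.024 when centred and 0.015 after quantile normalization, the MIR22HG difference between lines to 0.0056 after quantile normalization and 0.026 when libraries were rescaled on other than ribosomal and mitochondrial loci, and LXLOC_023857 in LM3 to 0.064, 0.10 and 0.034 under the 3 scalings, where the cause was not tested either. Leaving out overlapping loci was run with the 4 genes themselves kept in, while overlapping loci of the lists dropped out. In each line 1 lncRNA of the p53 list was then tested, and it was not called. Of the microRNA hosts 10 were tested in each line, with 0 higher in either, 4 lower in HepG2 and 1 lower in LM3. NEAT1, PVT1 and MIRLET7BHG thus had no call under that setting.

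Leaving out each library in turn, where a lone library is assumed to vary like the other group, gave 0.35 to 0.39 for PURPL, -0.12 to 0.094 for TP53TG1, -0.28 to 9.8e-05 for MIR34AHG and 0.47 to 0.70 for MIR22HG in HepG2. In LM3 the ranges were -0.21 to 0.46, 0.47 to 0.55, -1.01 to -0.72 and 0.30 to 0.69. For the difference between lines they were -0.58 to 0.092 for PURPL and -0.28 to 0.11 for MIR22HG. PURPL in LM3 was -0.21 without vehicle replicate 1 and 0.46 without vehicle replicate 2. LXLOC_002940 in HepG2 ran from -0.17 without vehicle replicate 2 to 0.52 without vehicle replicate 1, and LXLOC_023857 in LM3 from -0.078 to 0.039. Loci called numbered 0 to 199 higher and 0 to 292 lower in HepG2, and 0 each way in LM3. With a replicate block, which the labels' numbers do not establish as a pairing (correlation of same-numbered deviations -0.0345 in HepG2 and 0.135 in LM3), no member's call changed, and 620 loci were higher and 833 lower in HepG2, 391 and 824 in LM3.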
